A study of Mus musculus with 12 samples.

Results

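A set of 10 genes of ITAM signalling was followed across the RNA sequencing libraries of bone marrow-derived monocytes (BMDMs), the cells that become osteoclasts: the signalling adaptors Tyrobp and Fcer1g, the receptors Trem1, Trem2, Fcgr1, Fcgr3 and Pirb, and the downstream enzymes Syk, Btk and Plcg2. They were chosen as listed genes of the pathway, not by their values, though earlier results of these data were known. They were found by matching the Ensembl identifiers of the table to GENCODE symbols. All 10 of them were present among the 21899 genes of the table, and all 10 passed the filter on low counts that left 11670 genes for testing. Every library came from marrow cells of C57BL/6 mice kept in 50 ng/ml of the growth factor M-CSF and 100 ng/ml of RANKL, which induces osteoclasts. There were 4 groups of 3 libraries. The dBRD9 group also received dBRD9, a degrader of the chromatin remodelling subunit BRD9. The JQ1 group received JQ1, an inhibitor of the bromodomains of BET proteins. The DEX and iBRD9 group received the glucocorticoid dexamethasone (DEX) and, at the same time, iBRD9, which blocks the bromodomain of BRD9, and neither agent alone is analysed here. The MR group had the cytokines as its only labelled treatment and served as the control. The labels give neither the doses of the compounds nor the number of mice, and do not say whether the 3 libraries of a group came from separate cultures, so the p-values measure the spread between these libraries, which may be technical. Comparisons addressed how degrading or inhibiting BRD9, or inhibiting BET proteins, changed the RNA of precursors under osteoclast induction.

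An ITAM is a pair of tyrosines in the cytoplasmic tail of an adaptor, and osteoclast precursors use it as a costimulatory signal beside RANKL. Receptors with short tails, such as TREM2 and the activating Fc receptors, sit in the membrane with the adaptor DAP12 (encoded by Tyrobp) or the Fc receptor gamma chain (encoded by Fcer1g). When the receptors are clustered, Src family kinases phosphorylate the adaptor, the kinase SYK docks on it, and BTK and PLCG2 are activated, which releases calcium and through calcineurin brings NFATc1 into the nucleus. PIRB is the inhibitory counterpart, since its tail carries ITIMs, which recruit phosphatases.

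The libraries held 14875951 to 18067758 counts each. The BMDM label was checked with markers. All 10 macrophage and precursor markers, among them Csf1r, Adgre1 and Tnfrsf11a, were detected in all 12 libraries, and their summed level was 36935 to 42404 CPM (read counts scaled to library size with TMM factors) in JQ1 libraries, against 21834 to 22214 CPM in MR libraries. Lyz2, the macrophage lysozyme, carried this difference, since the other 9 markers summed to 6750 to 6983 CPM in JQ1 libraries, against 6790 to 6960 CPM in MR libraries. With JQ1, 4 of the 10 rose and 6 fell. The osteoclast genes ranged from Calcr, at 0 counts throughout, to Ckb, at a mean of 910 CPM in JQ1 libraries, against 514 CPM in MR libraries. Of the 13 tested, 11 fell with JQ1 (against 31.6% of all genes) and 2 rose (against 30.0%). Of 12 neutrophil markers 9 were tested, and all 9 fell with JQ1 (against 31.6% of all genes). The 12 summed to 45.0 to 58.0 CPM in JQ1 libraries, against 239 to 259 CPM in MR libraries. The defining mast cell and basophil gene Fcer1a was at 0 counts in all 12 libraries, so the adaptor Fcer1g was measured here without the receptor chain it is named for. T and NK cell markers summed to at most 9 counts per library and B cell markers to at most 60. Liver transcripts divided the libraries across the groups: Alb had 738 to 1031 counts in 7 libraries (all of dBRD9, all of JQ1 and MR replicate 3) and 0 to 2 counts in the other 5, so a term for this division leaves MR replicate 3 alone as the control for dBRD9 and JQ1. The part of this division in the results was not tested beyond that fit. In these bulk libraries, fewer cells that use a gene and less of its RNA per cell cannot be told apart.

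The starts of the adaptor gene Fcer1g, which rose with JQ1, and of the receptor genes with the largest rise and the largest fall, are shown so that the values below can be read beside their promoters. Each sequence was read from the GRCm39 genome at the first annotated base of the canonical GENCODE transcript, covers 250 bases before it to the 50th base of the transcript, and runs 5′ to 3′ along the strand of the gene. It lay at chr1:171062170-171062469 (minus strand) for Fcer1g, chr17:48539534-48539833 (plus strand) for Trem1 and chr3:96201289-96201588 (minus strand) for Fcgr1. Capitals mark matches on either strand to GAGGAA (the core of the site of PU.1, the macrophage transcription factor encoded by Spi1, which reads TTCCTC on the other strand) or to TTCNNNGAA (the gamma-activated site, GAS, bound by STAT dimers).
Fcer1g: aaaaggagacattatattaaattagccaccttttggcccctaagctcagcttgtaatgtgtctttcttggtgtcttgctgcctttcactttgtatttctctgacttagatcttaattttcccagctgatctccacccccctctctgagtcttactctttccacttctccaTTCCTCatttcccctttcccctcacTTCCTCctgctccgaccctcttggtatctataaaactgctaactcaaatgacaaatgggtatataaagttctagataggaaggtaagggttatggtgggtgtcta
Trem1: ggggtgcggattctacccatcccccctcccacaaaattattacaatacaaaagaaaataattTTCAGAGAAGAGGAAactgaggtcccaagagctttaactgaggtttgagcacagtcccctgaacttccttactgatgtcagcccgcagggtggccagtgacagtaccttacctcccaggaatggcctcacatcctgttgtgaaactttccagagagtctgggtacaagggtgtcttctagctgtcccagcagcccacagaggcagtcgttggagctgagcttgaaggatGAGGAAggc
Fcgr1: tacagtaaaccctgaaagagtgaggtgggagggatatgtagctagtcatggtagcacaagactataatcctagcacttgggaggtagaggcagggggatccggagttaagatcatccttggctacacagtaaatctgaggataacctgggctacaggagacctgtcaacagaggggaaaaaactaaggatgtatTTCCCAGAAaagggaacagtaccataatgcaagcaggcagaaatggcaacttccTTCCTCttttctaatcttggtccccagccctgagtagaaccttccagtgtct
A PU.1 core was found in 7 of the 9 genes searched (Fcer1g, Trem1, Trem2, Pirb, Fcgr1, Syk and Btk). Of 21484 promoters of the same length, from protein-coding genes of the table whether tested or not, 27.6% held it. Fcer1g held it at -80 and -55, Trem1 at -179 and 42 and Fcgr1 at -2, counted in bases from the transcription start. The GAS letters occurred in Trem1, at -188, directly before its PU.1 core, and in Fcgr1, at -56, against 8.84% of all promoters. The letters TGANTCA, a loose form of the AP-1 site with any middle base, were found in Trem2 alone of the 9 (7.13% of promoters). There they read TGAATCA, while the AP-1 site proper has C or G in the middle. The core of the interferon-stimulated response element, GAAA followed after any 2 bases by GAAA, was found in 0 of 9 (3.81% of promoters). Matches of different motifs did not overlap in these genes. A match describes the letters of the window and says nothing of binding. The window was set after matches had been seen in shorter ones, so the shares are not a test.

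**Figure D1:**
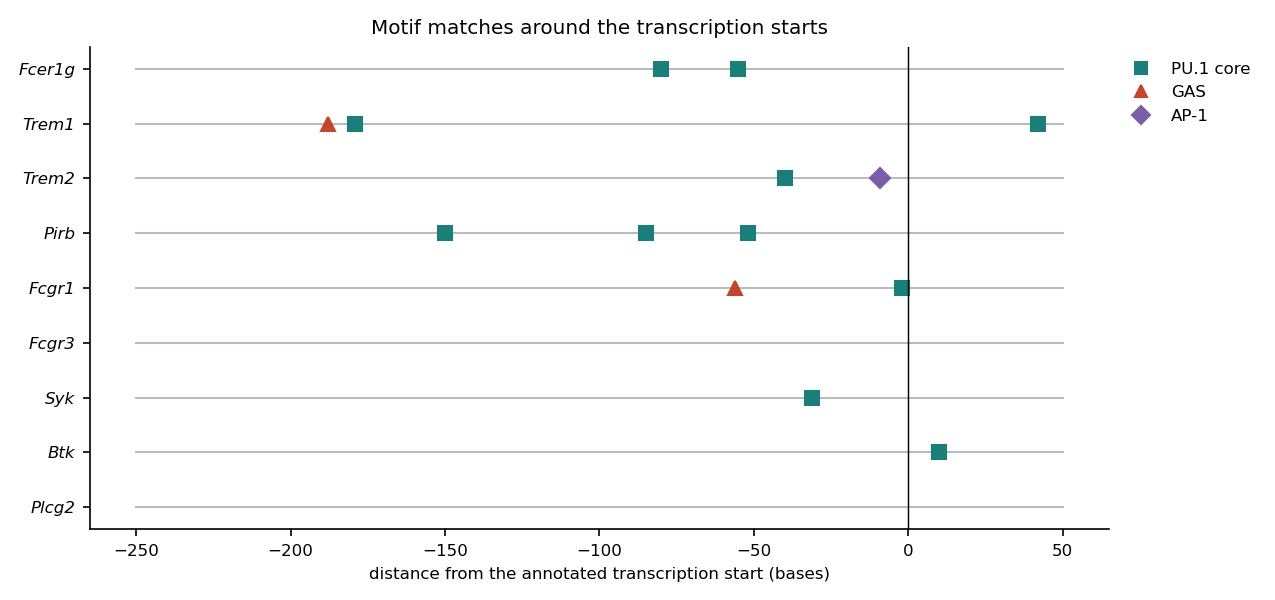
Position of motif matches (x axis, bases from the annotated transcription start, shown by the vertical line) in the window of each of 9 genes. PU.1 cores (squares) were found in 7 genes, GAS letters (triangles) in Trem1 and Fcgr1, and TGANTCA letters (diamond, labelled AP-1) in Trem2.

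Levels between genes were compared on the FPKM scale of the authors, which takes transcript length into account. In MR libraries the adaptors were the most abundant: Fcer1g averaged 792 ± 41.5 FPKM and Tyrobp 390.1 ± 18.6 FPKM (SD, n = 3). Fcgr3 (141 ± 3.13 FPKM) and Pirb (135 ± 1.05 FPKM) followed. Fcgr1 (78.4 ± 5.33 FPKM) and Trem2 (77.6 ± 2.12 FPKM) overlapped in their libraries, so these neighbours were not separated by their spread. The enzymes lay below them, with Plcg2 at 58.7 ± 0.66, Syk at 47.2 ± 0.80 and Btk at 36.3 ± 2.00 FPKM, and Trem1 was lowest at 1.24 ± 0.18 FPKM. All other neighbours in this order were separated in every MR library. In the dBRD9 group and in the DEX and iBRD9 group the order was the same except that Trem2 stood above Fcgr1 without overlap. In JQ1 libraries Fcgr1 was last, at 3.14 ± 0.72 FPKM, and Trem1 was next to last, at 8.82 ± 0.40 FPKM, while Plcg2 (68.5 ± 0.83 FPKM) and Trem2 (62.7 ± 5.62 FPKM) overlapped. The adaptors kept a narrow proportion to each other, since the ratio of Fcer1g to Tyrobp FPKM was 1.77 to 2.13 over all 12 libraries.

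**Figure D2:**
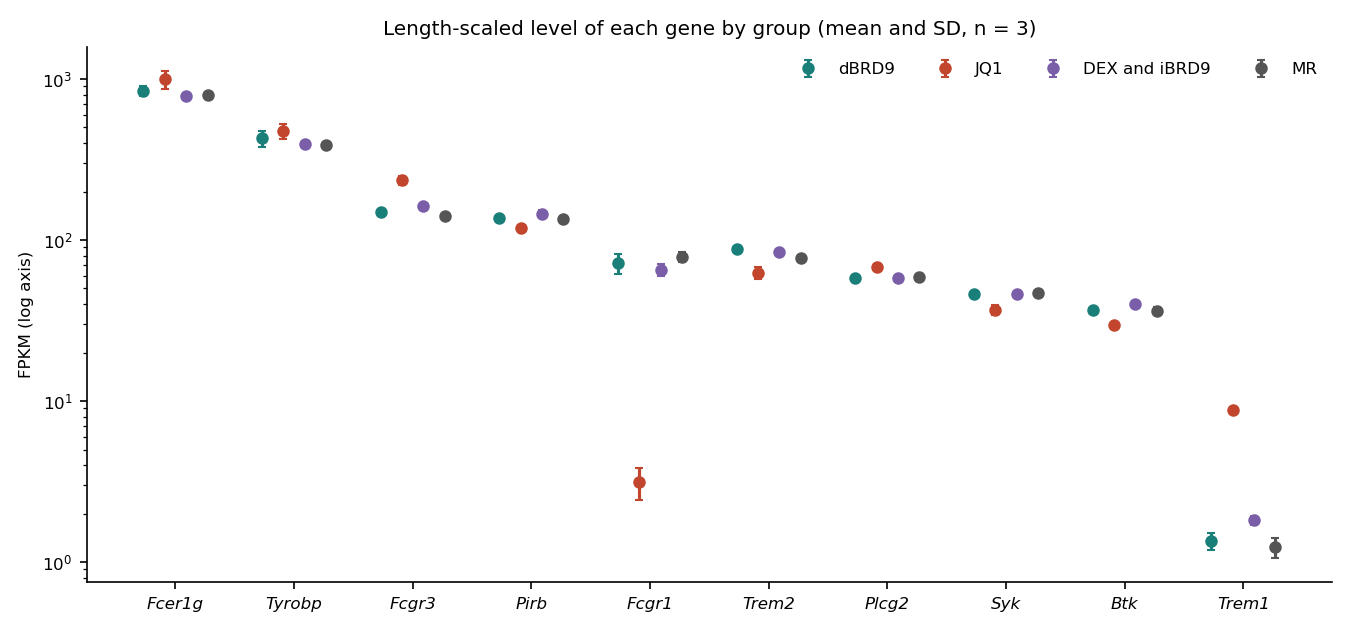
FPKM of each gene (log axis) in the dBRD9, JQ1, DEX and iBRD9, and MR groups, as the mean of 3 libraries with its SD, in the order of the MR means. The JQ1 mean of Fcgr1 (3.14 FPKM) lies far below its MR mean (78.4 FPKM), and that of Trem1 (8.82 FPKM) far above (1.24 FPKM).

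With the BRD9 degrader the 10 genes stayed near their control levels. None of them passed the test for dBRD9 against MR (edgeR quasi-likelihood, Benjamini-Hochberg adjusted p under 0.05), where 1.64% of all tested genes were called (0.514% higher and 1.12% lower). DESeq2 also called 0 of the 10, and 1 had an unadjusted p under 0.05 in edgeR, against 16.6% of all genes. The median log2 fold change of the 10 was 0.05, against 0.01 over all genes. The gene with the unadjusted p was Trem2, a lipid and glycoprotein receptor of macrophages and microglia that signals through DAP12. Trem2 had 427, 409.6 and 422 CPM in dBRD9 libraries, against 381, 360.2 and 376 CPM in MR libraries. The groups did not overlap, and the log2 difference was 0.17 ± 0.06 (SE) with an adjusted p of 0.116 (edgeR). This call depended on the fit: the adjusted p of Trem2 was 0.0158 in a fit of the 6 libraries compared, 0.00816 without the JQ1 group, 0.0137 without JQ1 replicate 1 alone, and 0.785 with the liver term.

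Fcgr3 was the other gene without overlap (2 of 10, against 25.0% of all genes), with 246, 247 and 259 CPM in dBRD9 libraries, against 240.0, 231 and 242 CPM in MR libraries. Its log2 difference was 0.08 ± 0.06 (edgeR adjusted p = 0.532). Tyrobp, at 307, 245 and 276 CPM in dBRD9 libraries, against 239.7, 256 and 263 CPM in MR libraries, spread more widely within the dBRD9 group than between the groups. Fcgr1 had 202, 152 and 185 CPM in dBRD9 libraries, against 182, 205 and 205 CPM in MR libraries, and the groups overlapped (log2 difference -0.14, 95% interval -0.37 to 0.10). Syk, Btk, Plcg2 and Pirb differed by between -0.03 and 0.03 on the log2 scale, and the intervals of these differences reached from -0.14 to 0.13. The intervals of Fcer1g and Trem1 were -0.06 to 0.24 and -0.23 to 0.49.

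**Figure D3:**
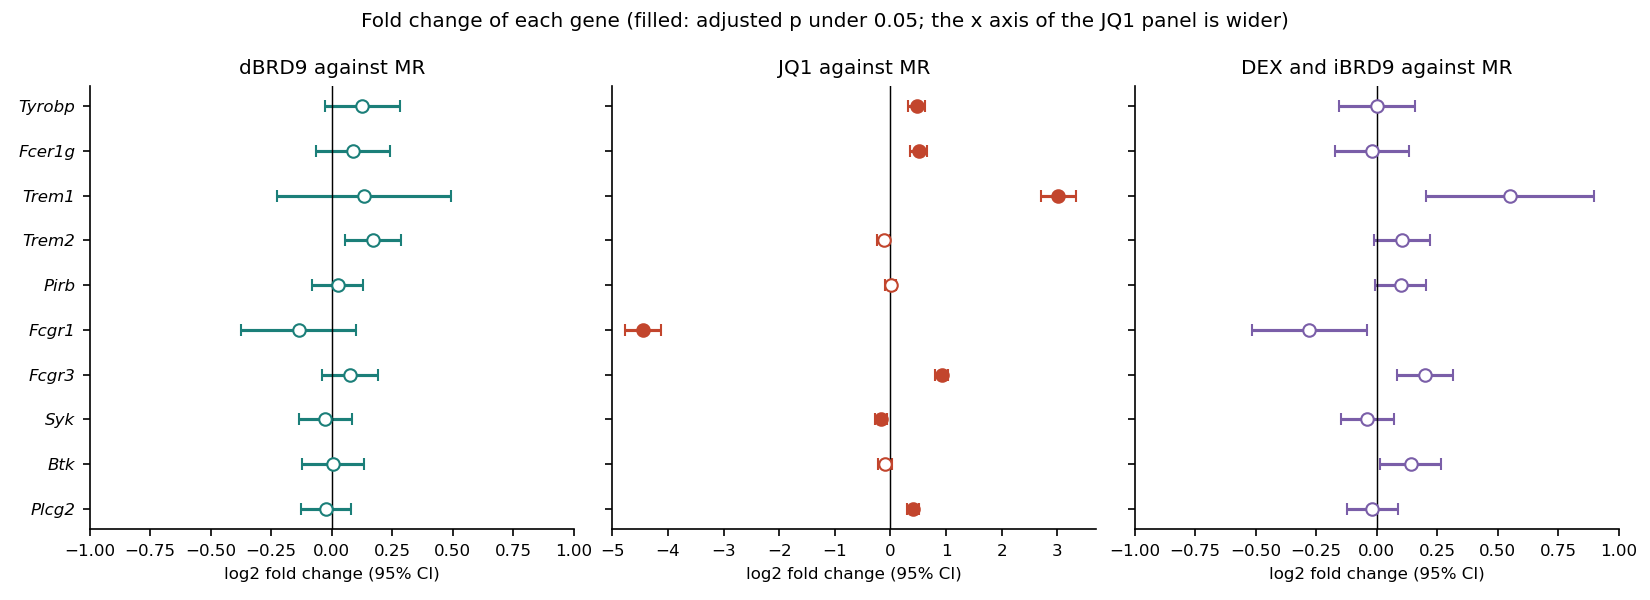
Log2 fold change of each gene with its 95% confidence interval for the 3 treated groups, each set against the same 3 MR libraries, with filled points for an adjusted p under 0.05. Filled points appear only in the JQ1 panel, whose axis is wider, where Trem1 stands at 3.02 and Fcgr1 at -4.45.

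Inhibition of BET proteins split the 10 genes. With JQ1, Trem1, Fcgr3, Fcer1g, Tyrobp and Plcg2 rose, Fcgr1 and Syk fell, and Trem2, Btk and Pirb did not pass the test (edgeR, adjusted p under 0.05). JQ1 changed much of the transcriptome, with 61.6% of tested genes called, 30.0% higher and 31.6% lower, and 7 of the 10 called is near that background. The same 7 had no overlap between the groups, against 63.4% of all genes. The median log2 fold change of the 10 was 0.21, against -0.01 over all genes, and ran from -4.45 to 3.02.

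Both signalling adaptors rose. Tyrobp had 306, 369 and 376 CPM in JQ1 libraries, against 239.7, 256 and 263 CPM in MR libraries. Fcer1g had 819, 1009 and 1050.4 CPM in JQ1 libraries, against 633, 687 and 697 CPM in MR libraries. In both genes every JQ1 library lay above every MR library, and JQ1 replicate 1 was the lowest of its group. The log2 rise was 0.47 ± 0.08 for Tyrobp (SE, edgeR adjusted p = 1.07e-05), and 0.51 ± 0.07 for Fcer1g (edgeR adjusted p = 2.88e-06).

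The DAP12-coupled receptors went apart. Trem1, an amplifier of inflammatory responses on monocytes and neutrophils, had 30.3, 27.7 and 29.6 CPM in JQ1 libraries, against 3.47, 3.16 and 4.19 CPM in MR libraries. It was the largest rise among the 10, 8.12-fold, with a log2 fold change of 3.02 ± 0.15 (edgeR adjusted p = 1.33e-16). Every neutrophil marker tested fell in the same libraries, and which cells carried the Trem1 RNA was not tested. Trem2, whose level was far above that of Trem1 on the FPKM scale, had 313, 373 and 342 CPM in JQ1 libraries, against 381, 360.2 and 376 CPM in MR libraries. The groups overlapped through JQ1 replicate 2, and the log2 difference of -0.12 ± 0.06 had an adjusted p of 0.0685 (edgeR). Without JQ1 replicate 2 the difference was -0.19 and the edgeR adjusted p was 0.00798. The ratio of Trem1 to Trem2 FPKM was 0.122 to 0.160 in JQ1 libraries, against 0.0145 to 0.0184 in MR libraries. Exons of Trem1 (823 bases), Trem2 (433 bases) and Plcg2 (158 bases) overlap long noncoding RNAs on the opposite strand, and since no source says whether counting used strand, reads of these pairs cannot be told apart.

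The Fc receptors moved in opposite directions. Fcgr1, which encodes the high-affinity IgG receptor CD64, had 6.57, 9.82 and 10.5 CPM in JQ1 libraries, against 182, 205 and 205 CPM in MR libraries. This is a 21.8-fold lower level, with a log2 fold change of -4.45 ± 0.15 (edgeR adjusted p = 1.92e-12), and rests on 89 to 159 counts per JQ1 library. Fcgr3, which encodes the low-affinity IgG receptor CD16 and needs the same gamma chain, had 425, 434 and 492 CPM in JQ1 libraries, against 240.0, 231 and 242 CPM in MR libraries. It rose 1.90-fold, by 0.92 ± 0.06 on the log2 scale (edgeR adjusted p = 1.5e-14), with no overlap between the groups. The ratio of Fcgr1 to Fcgr3 FPKM was 0.0104 to 0.0152 in JQ1 libraries, against 0.508 to 0.594 in MR libraries. Pirb, the inhibitory receptor, had 579, 572 and 611 CPM in JQ1 libraries, against 590.2, 579 and 589 CPM in MR libraries. These overlapped, and the log2 difference was 0.00 with a 95% interval of -0.10 to 0.11. Pirb belongs to a family of near-identical Pira genes, and the Fc receptor genes are also similar to each other, so reads shared between copies make their levels uncertain.

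Of the 3 enzymes, Plcg2 rose and Syk fell. Plcg2, the phospholipase that opens the calcium branch, had 328, 321 and 327 CPM in JQ1 libraries, against 248, 241 and 246 CPM in MR libraries, and rose by 0.41 ± 0.05 on the log2 scale (edgeR adjusted p = 5.51e-08). Syk, the kinase that binds the phosphorylated ITAM, had 409.9, 375 and 363 CPM in JQ1 libraries, against 436, 420.05 and 431 CPM in MR libraries. The groups stood apart, though JQ1 replicate 1 was close to MR replicate 2, and Syk fell by 0.16 ± 0.05 on the log2 scale (edgeR adjusted p = 0.00895). Btk, a Tec family kinase, had 101, 104 and 106 CPM in JQ1 libraries, against 104, 115 and 114 CPM in MR libraries, with a log2 difference of -0.10 (95% interval -0.23 to 0.03, edgeR adjusted p = 0.17).

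Scaling by total counts instead of TMM moved the median of all genes to -0.20 for JQ1 against MR, and the calls over all genes to 2216 higher and 5170 lower, against 3503 and 3687 with TMM. On that scale the rises of Tyrobp, Fcer1g and Plcg2 were 0.28, 0.33 and 0.22 and remained called, the change of Syk was -0.35, and Trem2 (-0.31), Btk (-0.29) and Pirb (-0.18) were also called lower. With the liver term the log2 difference of Syk was -0.17 and its edgeR adjusted p 0.0796, while the other 6 calls held. Changes smaller than the shift of the median depend on the scaling.

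**Figure D4:**
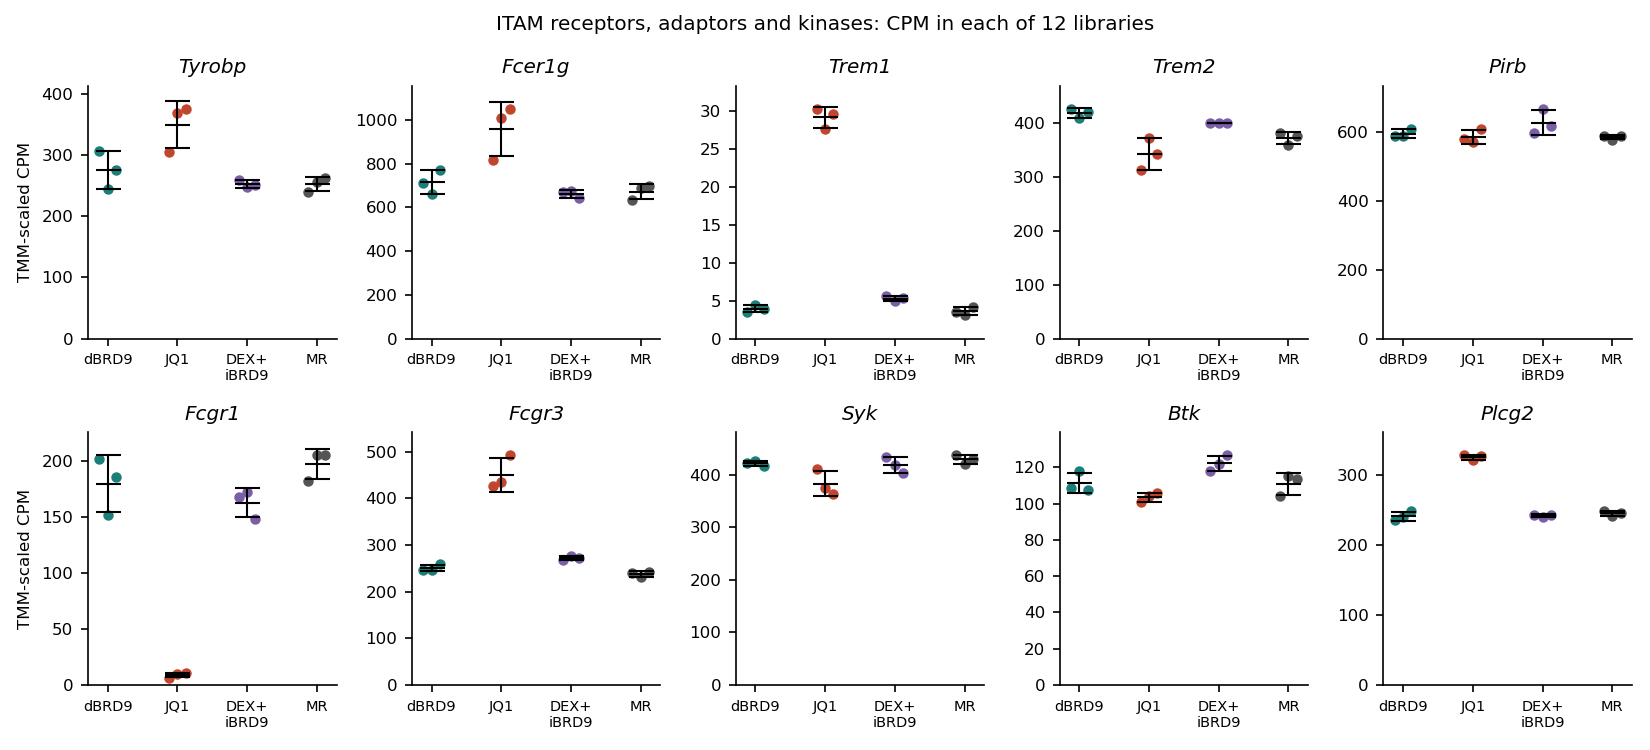
TMM-scaled CPM of the 10 genes in each of 12 libraries (points), with the group mean and SD (bars), for the dBRD9, JQ1, DEX and iBRD9, and MR groups, each axis starting at 0. JQ1 libraries stand apart in Trem1 (27.7 to 30.3 CPM, against 3.16 to 4.19 CPM in MR) and Fcgr1 (6.57 to 10.5 CPM, against 182 to 205 CPM in MR).

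With DEX and iBRD9, none of the 10 genes passed the test, where 1.95% of all tested genes were called (0.591% higher and 1.36% lower). DESeq2 called 1 of the 10, Fcgr3, and edgeR gave 4 of them an unadjusted p under 0.05, against 15.6% of all genes. The groups did not overlap in 6 of the 10, against 25.1% of all genes, and the median log2 fold change was 0.05, against 0.00 over all genes. Fcgr3 had 269, 277 and 272 CPM in DEX and iBRD9 libraries, against 240.0, 231 and 242 CPM in MR libraries. Its log2 difference was 0.20 ± 0.06 and its edgeR adjusted p 0.0637, which became 0.0017 in a fit of the 6 libraries compared, 0.0101 without JQ1 replicate 1, 0.0229 without JQ1 replicate 3, and 0.149 with the liver term.

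Trem1 had 5.54, 4.89 and 5.35 CPM in DEX and iBRD9 libraries, against 3.47, 3.16 and 4.19 CPM in MR libraries. These values rest on 82 to 98 counts per DEX and iBRD9 library, against 59 to 65 per MR library, and the log2 difference of 0.55 ± 0.17 had an edgeR adjusted p of 0.0886. Fcgr1 had 168, 172 and 148 CPM in DEX and iBRD9 libraries, against 182, 205 and 205 CPM in MR libraries. Every DEX and iBRD9 library was below every MR library, at a log2 difference of -0.28 ± 0.11 (edgeR adjusted p = 0.239, and 0.000769 in the fit of 6 libraries). Btk stood at 118, 122 and 127 CPM in DEX and iBRD9 libraries, against 104, 115 and 114 CPM in MR libraries, a log2 difference of 0.14 (edgeR adjusted p = 0.265). Trem2 (400.4, 401 and 400.5 CPM in DEX and iBRD9 libraries) and Pirb (598, 668 and 618 CPM) also lay above their MR libraries without passing the test, with adjusted p of 0.374 and 0.35 (edgeR). Tyrobp, Fcer1g, Syk and Plcg2 overlapped between the groups, and their log2 differences were between -0.04 and 0.00.

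JQ1 was also set against dBRD9, which compares the BET inhibitor with the BRD9 degrader in libraries on the same side of the liver division. The study's text gives different concentrations for these compounds, so this compares the 2 groups and not equal exposures. The higher genes were the same 5, with log2 fold changes of 2.89 for Trem1, 0.85 for Fcgr3, 0.43 for Plcg2, 0.42 for Fcer1g and 0.34 for Tyrobp, and Fcgr1 fell by 4.31. These libraries of JQ1 are also those of the comparison with MR, so the values are given side by side and are not a second test. In this comparison 63.2% of all tested genes were called, 30.4% higher and 32.8% lower, and 8 of the 10 were called (edgeR). Likewise 8 of the 10 had an unadjusted p under 0.05, against 66.4% of all genes, and 8 did not overlap between the groups, against 63.7%. Trem2 fell here, to 313, 373 and 342 CPM in JQ1 libraries, against 427, 409.6 and 422 CPM in dBRD9 libraries. The groups did not overlap, and the log2 fold change was -0.29 ± 0.06 (edgeR adjusted p = 5.85e-05). Syk was 0.14 lower on the log2 scale in JQ1 (edgeR adjusted p = 0.0259), a call that was lost when any dBRD9 library or JQ1 replicate 2 or 3 was left out, with adjusted p of 0.0557 to 0.117, and in the fit of the 6 libraries compared (0.0841). Tyrobp, although called, overlapped between JQ1 replicate 1 (306 CPM) and dBRD9 replicate 1 (307 CPM), and with total count scaling its edgeR adjusted p was 0.071. Btk (-0.11, adjusted p = 0.145) and Pirb (-0.02, adjusted p = 0.724) did not pass the test.

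Around the 10 genes, other receptors of the pathway mostly fell with JQ1. Of 28 other ITAM-coupled receptors and subunits listed, 25 were in the table and 20 were tested. With JQ1 against MR, 3 rose (15%, against 30.0% of all genes) and 16 fell (80%, against 31.6%). Their median log2 fold change was -1.78, against -0.01 over all genes. The C-type lectin receptor Clec4n (Dectin-2) had 4.95, 6.05 and 4.19 CPM in JQ1 libraries, against 55.7, 53.8 and 57.3 CPM in MR libraries. Pira2, an activating relative of PIRB that pairs with the gamma chain, had 3.91, 3.77 and 3.56 CPM in JQ1 libraries, against 40.9, 55.4 and 42.7 CPM in MR libraries. Their log2 fold changes were -3.44 ± 0.11 and -3.63 ± 0.17, and Sirpb1c stood at -4.05 (edgeR, all called). Fcgr4, an activating IgG receptor picked after its values were seen, was at -3.05 ± 0.11 and so moved like Fcgr1 and opposite to Fcgr3. Integrin beta 2 (Itgb2), the common chain of the leukocyte integrins, rose by 1.04 ± 0.05, with 3290.3, 3309 and 3386 CPM in JQ1 libraries, against 1618, 1609 and 1623 CPM in MR libraries. Cd300lb rose by 0.83, and Hcst, the adaptor DAP10, which carries a motif for PI3 kinase and no ITAM, rose by 1.03 at 2.53 CPM in MR libraries. Oscar, a collagen receptor of osteoclast precursors that uses the gamma chain, had 0 to 6 counts per library and was not tested, and Itgb3, the beta chain of the osteoclast integrin, fell by 0.73.

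**Figure D5:**
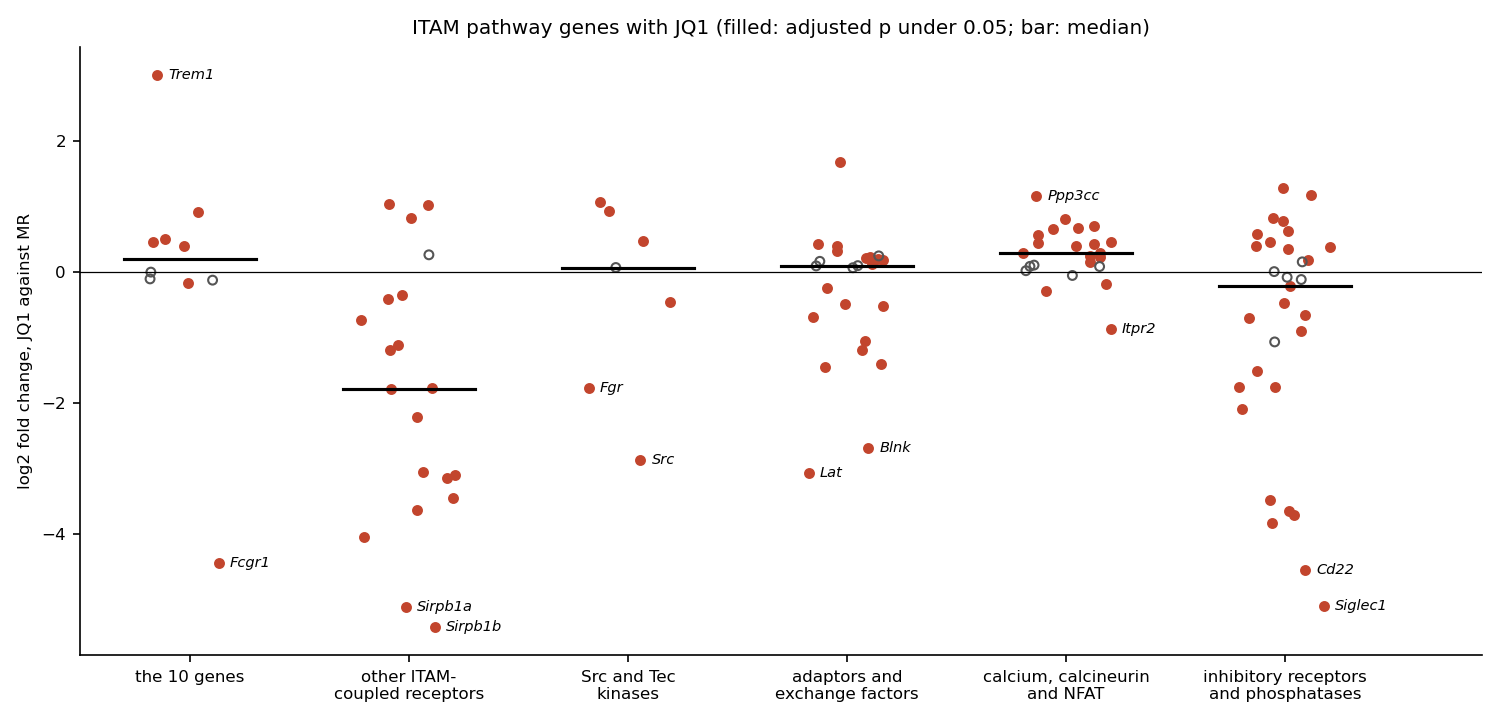
Log2 fold change of JQ1 against MR (y axis) for each tested gene of the 10 and of 5 pathway lists, with filled points for an adjusted p under 0.05, a bar at the median of each list, and the names of the 2 largest changes per list. The other ITAM-coupled receptors have a median of -1.78, while the calcium, calcineurin and NFAT list has a median of 0.30.

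Of 7 tested Src and Tec family kinases and their regulators, 3 rose (42.9%, against 30.0% of all genes) and 3 fell (42.9%, against 31.6%) with JQ1, with a median of 0.07 that turned to -0.11 with total count scaling. Lyn had 479, 483 and 492 CPM in JQ1 libraries, against 227, 230.5 and 231 CPM in MR libraries, and rose by 1.08 ± 0.05. Src, the kinase that osteoclasts need to form their ruffled border, had 2.44, 4.39 and 3.63 CPM in JQ1 libraries, against 23.4, 27.3 and 26.2 CPM in MR libraries, and fell by 2.86 ± 0.15. Tec (0.93) and Fyn (0.47) rose with Lyn, and Fgr (-1.76) fell with Src (edgeR, all called).

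The list of adaptors and exchange factors held 24 genes, which include PI3 kinase subunits and do not all act between SYK and PLCG2. Of these, 9 rose (37.5%, against 30.0% of all genes) and 10 fell (41.7%, against 31.6%) with JQ1. Their median of 0.10 turned to -0.09 with total count scaling. The B cell linker Blnk, one of the scaffolds on which BTK meets PLCG2, had 15.1, 16.2 and 16.3 CPM in JQ1 libraries, against 104, 97.2 and 104 CPM in MR libraries, and fell by 2.68 ± 0.08. The related scaffold Lcp2 (SLP-76) rose by 0.40 ± 0.07. Gab3 (1.69) and Vav2 (0.43) rose, Pik3r5 (-1.45) and Lat2 (-1.40) fell, and the exchange factor Vav3 was at 0.10 with an edgeR adjusted p of 0.2. The calcium, calcineurin and NFAT list had the opposite balance to the receptors: 15 of 23 tested rose (65.2%, against 30.0% of all genes) and 3 fell (13.0%, against 31.6%), with a median of 0.30 that dropped to 0.11 with total count scaling. The calcium sensor Stim1 had 102, 106 and 96.3 CPM in JQ1 libraries, against 56.3, 59.1 and 58.7 CPM in MR libraries, and rose by 0.81 ± 0.07. The channel Orai1 (0.71), the calcineurin subunit Ppp3cc (1.16) and Nfatc1 (0.40) rose with it, while Itpr2 (-0.87), Rcan1 (-0.29) and Camk2d (-0.17) fell (edgeR, all called). With total count scaling the counts were 4 higher and 10 lower for the adaptors and 10 higher and 5 lower for the calcium list.

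Of 31 genes listed as inhibitory receptors and phosphatases, 11 rose (35.5%, against 30.0% of all genes) and 15 fell (48.4%, against 31.6%) with JQ1. Their median was -0.21. With total count scaling 10 rose and 19 fell, with a median of -0.39. Siglec1 (-5.09), Clec12a (-3.82) and Clec4a2 (-3.71) fell most and Lilrb4a (1.29), Pag1 (1.18) and Ptprj (0.84) rose most among the called genes that averaged 5 CPM or more. Siglec1 stood in this list although it carries no ITIM. Sirpa, a receptor for CD47, had 3419, 3333 and 3136 CPM in JQ1 libraries, against 2396, 2383 and 2414 CPM in MR libraries, and rose by 0.46 ± 0.05. The phosphatase genes Inpp5d (SHIP-1) and Ptpn6 (SHP-1) rose by 0.41 and 0.19, and Fcgr2b, the inhibitory IgG receptor, fell by 0.21 (edgeR, all called). Total count scaling moved the median of all genes to -0.20, about the size of the Ptpn6 rise.

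In the other groups few of these genes passed the test in the main fit. With dBRD9, Prkcb, a calcium-dependent protein kinase C, had 144, 141 and 146 CPM, against 199, 179 and 179.5 CPM in MR libraries, and fell by 0.37 ± 0.09 (edgeR adjusted p = 0.0424). This call was lost with total count scaling, with the liver term, and without any MR library, any dBRD9 library or DEX and iBRD9 replicate 3. Dok2, an adaptor that dampens tyrosine kinase signals, had 140.5, 137 and 142 CPM in dBRD9 libraries, against 117, 114 and 125 CPM in MR libraries, and rose by 0.24 ± 0.06 (edgeR adjusted p = 0.0419). This call was lost with the liver term, and without MR replicate 1 or 2, any DEX and iBRD9 library or any dBRD9 library. These were 2 of the 105 genes tested in the 5 lists (1.90%, against 1.64% of all genes), and 0 of the 105 were called with DEX and iBRD9 (against 1.95% of all genes, edgeR). In edgeR an unadjusted p under 0.05 was found for 27 of the 105 with dBRD9 (25.7%, against 16.6% of all genes). For DEX and iBRD9 it was found for 21 (20%, against 15.6%). DESeq2 called 3 of the 105 higher and 6 lower with dBRD9, against 118 and 281 of all 11670 genes. With DEX and iBRD9 it called 0 higher and 2 lower, against 126 and 240. A fit of just the 6 libraries of each comparison was also run in edgeR. With dBRD9, 4 of the 105 were then higher and 11 lower, against 276 and 500 of 11434 genes. With DEX and iBRD9, 4 were higher and 8 lower, against 402 and 652 of 11348 genes. In the fit of 9 libraries without JQ1, 5 were higher and 13 lower with dBRD9, against 346 and 578 of 11594 genes. For DEX and iBRD9 that fit gave 2 higher and 3 lower, against 251 and 413. The called share of the 105 with dBRD9 was 17.1% there, 14.3% in the fit of 6 libraries and 8.57% with DESeq2, each above the share of all genes. Of Blnk, Lcp2 and Vav3, Blnk differed most with dBRD9 (0.17, edgeR adjusted p = 0.19). Lcp2 differed most of them with DEX and iBRD9 (0.20, edgeR adjusted p = 0.116), and neither passed. Over all tested adaptors and exchange factors the differences ran from -0.26 to 0.25 with dBRD9, and from -0.25 to 0.20 with DEX and iBRD9.

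The genes whose profile over the 12 libraries came closest to a member were named by the root mean square distance of log2 CPM, centred on MR, among the 9399 tested genes that averaged 5 CPM or more. Prr13 was closest to both adaptors, at 0.055 for Tyrobp and 0.0555 for Fcer1g, with Idh2 (0.064) and Thoc6 (0.0676) next for Tyrobp, and Thoc6 (0.0628) and Jun (0.068) next for Fcer1g. For Trem2 they were Mcm7 (0.0371), Eif3l (0.0537) and Fgd2 (0.0544). For Trem1 the nearest genes were the histone genes H1f2 (0.254) and H2bc4 (0.268) and Nt5dc2 (0.3), a distance that grows with the size of the change.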

How the data were processed

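RNA of 12 BMDM libraries was sequenced after library preparation with a NEBNext kit. Per the labels and the submitters' processing notes, the authors trimmed reads with cutadapt, aligned them with HISAT2 to GRCm39 and made a count for each gene with HTSeq. The strand setting is not given in the sources used here. The deposited FPKM columns were computed by the authors from the same counts and total counts, and were used for levels between genes.

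Of 21899 identifiers 21700 matched GENCODE symbols on GRCm39 and 199 did not. Total counts were 14875951 to 18067758 per library. Tests used edgeR 4.0.16 (with limma 3.58.1) and, as an alternative, DESeq2 1.42.0, under R 4.3.3. Figures used matplotlib 3.10.9 and pandas 2.3.3 under Python 3.11.15. The filter was filterByExpr with a minimum count of 10 and a minimum total of 15. After TMM scaling, all 12 libraries entered a single edgeR quasi-likelihood model (robust, 8 residual degrees of freedom), with p adjusted by Benjamini and Hochberg over 11670 genes and called under 0.05. Log2 CPM for profile distances used a prior count of 2. The script was tested on simulated data. Chi-square values of replicate pairs were 3.55 to 15.7 times their degrees of freedom, so replicates differed beyond counting noise.

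The members, gene lists and tests were chosen with earlier results of these data known. Genes outside the 10 were named by a rule: the 3 largest called changes per direction and list with a mean of at least 5 CPM for JQ1 against MR, every called gene of the lists in dBRD9 and in DEX and iBRD9, a fixed set (Oscar, Lcp2, Blnk, Vav3, Nfatc1, Ptpn6, Inpp5d, Fcgr2b, Sirpa, Itgb3, Hcst), and the 3 genes most like Tyrobp, Fcer1g, Trem1 and Trem2. Clec7a and Pira1 were listed but are not analysed here. Promoters were read from GRCm39 at GENCODE canonical starts, 250 bases before to 50 after, a window set after the matches had been seen in shorter ones. The same 7 members held a PU.1 core in the window ending at base 20, which left out the second match of Trem1. The promoter of 1 member and 1 called kinase are not reported here. Alternatives were DESeq2 size factors, total count scaling, no filter, a stricter filter (at least 1 CPM in 3 libraries, with 20 counts on average), DESeq2's Wald test, fits of the 6 libraries compared or of 9 without JQ1, a liver term (at least 100 albumin counts), the threshold of the study's methods (unadjusted p under 0.05 and a fold of 1.2), and leaving out each library.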

Additional observations from a re-analysis of the deposited data

How the results depend on the processing

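The 5 rises with JQ1 and the fall of Fcgr1 kept their direction and their call against MR under every alternative run. The number of members called lower with JQ1 against MR was 2, and became 1 with the liver term or the threshold of the study's methods, 5 with total count scaling, and 2 to 3 when 1 library was left out. Against dBRD9 it was 3, then 5 with total count scaling, 2 in the fit of the 6 libraries compared or with the threshold of the study's methods, and 2 to 3 with 1 library left out. With dBRD9 the number higher was 0, and 1 (Trem2) in the fits of 6 and of 9 libraries and 0 to 1 with 1 library left out. With DEX and iBRD9 the number higher was 0, and 1 (Trem1) with the threshold of the study's methods. It was 1 (Fcgr3) with total count scaling, no filter, the fits of 6 and of 9 libraries, and DESeq2, and 0 to 1 with 1 library left out. The number lower there was 0, and 1 with the threshold of the study's methods, no filter and the fit of 6 libraries.

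Direction turned in differences that were not called with TMM. With the liver term these were, in log2, Trem1 (-0.0895) and Btk (-0.0278) in dBRD9, Pirb (-0.0033) in JQ1 against MR, and Tyrobp (0.0292) and Fcer1g (0.0057) in DEX and iBRD9. With DESeq2 size factors or the DESeq2 test Btk was at -0.0002 in dBRD9. With total count scaling Pirb was at -0.183 in JQ1 against MR, and Tyrobp at 0.0113 in DEX and iBRD9. Pirb was also at -0.0033 with the stricter filter and -0.0013 in the fit of 6 libraries. Leaving out 1 library at a time gave -0.0377 to 0.0338 for Btk in dBRD9, -0.0244 to 0.0221 for Pirb in JQ1 against MR, -0.0367 to 0.0292 for Tyrobp and -0.0624 to 0.0057 for Fcer1g in DEX and iBRD9, and -0.0503 to 0.0043 for Pirb in JQ1 against dBRD9. The cause was not tested.

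Over all genes, dBRD9 against MR gave 60 higher and 131 lower calls, and 1 and 0 with the liver term, 174 and 361 with no filter, 276 and 500 in the fit of 6 libraries, 118 and 281 with DESeq2, and 380 and 417 with the threshold of the study's methods. DEX and iBRD9 gave 69 and 159, then 20 and 81, 154 and 419, 402 and 652, 126 and 240, and 278 and 521 under the same alternatives. JQ1 against dBRD9 gave 3549 and 3828, and 2175 and 5261 with total count scaling. With 3 libraries a group and Trem1 at 59 to 98 counts outside JQ1, small differences of this gene are limited by depth. No paired analysis was possible because the labels carry no replicate numbers. The replicate numbers used here follow the order in which the samples are listed and pair nothing between groups.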

Other observations

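The neighbours of the members on the chromosome, a set chosen after the data were seen, are given as values. In the Trem locus on GRCm39 chromosome 17, Trem1 and Trem2 lie 99.48 kb apart. None of the tested genes between them was called higher with JQ1: Trem3 was at 0.27 (edgeR adjusted p = 0.462), Treml4 fell by 1.64, Treml2 by 1.97 and Trem6l by 1.42 on the log2 scale, with 49.2 CPM for Trem6l in JQ1 libraries, against 132 CPM in MR libraries. On chromosome 1, Fcgr3 and Fcer1g, which both rose, lie 163.6 kb apart. Between them Sdhc was at 0.09 (edgeR adjusted p = 0.241), Pcp4l1 fell by 0.33 and Tomm40l fell by 1.92, and no tested gene between them was called higher, Apoa2, a liver transcript, being at 1.57 (edgeR adjusted p = 0.0732).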
